A study of Mus musculus with 19 samples.

Results

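The genes described are 10 members of the tumor necrosis factor (TNF) receptor superfamily, taken by symbol from a table of 24982 genes: TNFRSF1A, TNFRSF1B, TNFRSF4, TNFRSF8, TNFRSF9, TNFRSF18, TNFRSF25, TNFRSF26, CD27 and FAS. All 10 had a row, and all 10 were among the 11464 genes that passed the filter on low counts. RNA was sequenced from CD4+ regulatory T cells (Tregs) of Foxp3DTR mice, in which the Foxp3 locus drives a diphtheria toxin receptor joined to green fluorescent protein, so that Tregs can be sorted as FoxP3-GFP+ cells. The cells came from the axillary, brachial and inguinal lymph nodes that drain the injury site and were sorted into CD44high and CD44low Tregs, with 50000 cells per sample. Injured mice were studied 7 days after a scald burn of 20% of the body surface (90 °C water for 9 s), and uninjured mice received sham treatment. Mice of the study were 8 to 16 weeks old, sex is not stated for these samples, and every group carries the same Foxp3DTR allele. There were 5 CD44low and 4 CD44high samples from uninjured mice and 6 CD44low and 4 CD44high samples from injured mice, 19 in all. The labels do not say whether samples came from separate or pooled mice, so the p-values measure the spread between these samples, which may be technical.

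Receptors of this superfamily sit on the cell surface and bind trimeric ligands of the TNF family. One branch, which holds TNFRSF4, TNFRSF8, TNFRSF9, TNFRSF18, TNFRSF1B and CD27, recruits TRAF adaptor proteins, switches on NF-kB and gives T cells signals for growth and survival. The other branch, with TNFRSF1A, TNFRSF25 and FAS, carries a death domain and can start cell death as well as inflammatory signalling. TNFRSF26 is a mouse receptor without a death domain. In Tregs, TNFRSF18 (GITR), TNFRSF4 (OX40), TNFRSF9 (CD137) and TNFRSF1B (TNFR2) are known markers of activated or effector cells.

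Promoter sequences are shown first for TNFRSF8, TNFRSF9 and FAS, picked from the windows that held matches to motifs searched. TNFRSF4 and TNFRSF25 also held matches and are not shown, and windows without a match are not shown either. Other genes that differed between the subsets are not shown. RefSeq promoters (build GRCm38.p6) were matched for 9 of the 10 genes, with 11 start sites in all, and the 250 bases before each start were searched on both strands. The motifs were the kappaB consensus of NF-kB, the AP-1 motif TGANTCA, the NFAT core TGGAAA and the forkhead motif TGTTTAC. Capitals in each sequence mark the bases of any match, and sequences run 5′ to 3′ on the strand of the gene.
TNFRSF8, chr4:145315165-145315414, minus strand: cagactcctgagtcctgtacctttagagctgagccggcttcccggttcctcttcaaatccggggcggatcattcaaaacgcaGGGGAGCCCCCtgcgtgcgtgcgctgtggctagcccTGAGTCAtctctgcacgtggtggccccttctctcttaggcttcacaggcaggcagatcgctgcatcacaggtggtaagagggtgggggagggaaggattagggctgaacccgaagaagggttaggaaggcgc
TNFRSF9 first start, chr4:150919905-150920154, plus strand: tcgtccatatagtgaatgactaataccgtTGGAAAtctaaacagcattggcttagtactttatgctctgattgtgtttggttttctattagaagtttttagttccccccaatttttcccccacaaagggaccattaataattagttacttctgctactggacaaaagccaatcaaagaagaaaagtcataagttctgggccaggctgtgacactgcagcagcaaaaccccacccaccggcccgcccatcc
TNFRSF9 second start, chr4:150927947-150927976, plus strand: agagcagctGGGGATTTCCCaggaggccct
FAS, chr19:34290409-34290658, plus strand: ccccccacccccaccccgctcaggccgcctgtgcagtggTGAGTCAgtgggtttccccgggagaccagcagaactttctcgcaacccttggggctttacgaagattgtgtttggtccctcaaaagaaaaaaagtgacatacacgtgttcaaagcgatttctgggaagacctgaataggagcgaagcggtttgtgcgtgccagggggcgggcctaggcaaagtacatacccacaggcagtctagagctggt

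The TNFRSF8 window held overlapping kappaB matches from 168 to 158 bases before the start and an AP-1 match from 132 to 126 bases before it. At the second TNFRSF9 start a kappaB match lay from 43 to 33 bases before the start, shown above within 30 bases, and an AP-1 match from 15 to 9 bases before it. The FAS window held an AP-1 match from 211 to 205 bases before the start, and the first TNFRSF9 start an NFAT core from 221 to 216 bases before it. Among the 11 windows, a kappaB match was found in 3 (TNFRSF8, TNFRSF9 and TNFRSF25), an AP-1 match in 3 (TNFRSF8, TNFRSF9 and FAS), an NFAT core in 2 (TNFRSF4 and TNFRSF9) and the forkhead motif in none. The windows of TNFRSF1B and TNFRSF18, which were also higher in CD44high Tregs, held no match to any motif. A link between matches and levels was not tested. Of 32851 promoter windows of the same length, 7.25% held a kappaB match, 6.75% AP-1, 18.6% the NFAT core, 3.17% the forkhead motif and 0.356% both kappaB and AP-1. These shares were not matched for G and C content. The windows with a kappaB match held 60.0% (TNFRSF8), 66.4% (second TNFRSF25 start) and 49.6% (second TNFRSF9 start) G and C. The median over all windows was 52.4%. A match describes letters in the window and does not show that a factor binds there. Some windows held bases that GENCODE vM21 annotates as the untranslated part of a transcript. These were 81 of the 250 bases at the second TNFRSF9 start, 166 at TNFRSF4, 158 at TNFRSF18 and 36 at TNFRSF1A. Whether matches lie in such bases was not examined.

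The genes sit in few places. Chromosome 4 holds 6 of the 10, and in GENCODE vM21 TNFRSF4 is the immediate protein-coding neighbour of TNFRSF18, and TNFRSF1B that of TNFRSF8. Chromosome 6 holds TNFRSF1A and CD27, while TNFRSF26 lies on chromosome 7 and FAS on chromosome 19. Exons of TNFRSF18 share 414 of 1524 bases with an antisense gene (Gm16008) and those of TNFRSF26 share 107 of 3218 with another (E230032D23Rik). Exons of CD27 share 129 of 2328 bases with the microRNA gene Mir8113 on the same strand. The counting is not stated to use strand, so reads from bases shared with an antisense gene cannot be assigned to one gene with certainty. For the bases that CD27 shares with Mir8113, strand would not separate the genes.

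Between 5582234 and 9433610 reads per library were counted on genes, and levels are given as CPM, counts scaled to library totals adjusted by edgeR's TMM factors. The sort markers followed the labels. In uninjured mice CD44 stood between 541 and 626 CPM in CD44high and between 111 and 156 CPM in CD44low libraries. After injury CD44 ranged from 369 to 497 CPM in CD44high and from 102 to 150 CPM in CD44low libraries. Every injured CD44high library thus lay below every uninjured one, though CD44 was not called lower. Its part in the injury comparisons was not tested. FOXP3 was detected in every library (47.7 to 181 CPM). Markers of other cells were low and not even. The summed level of 8 macrophage and dendritic cell markers ranged from 20.6 to 39.5 CPM in CD44low and from 73.2 to 147 CPM in CD44high libraries of uninjured mice. There 6 of the 6 tested were called higher in CD44high (24.7% of all genes). After injury the sums ranged from 34.1 to 149 CPM in CD44low and from 92.1 to 236 CPM in CD44high libraries, and LYZ2 made up most of them. Between these injured subsets 2 of 6 were called higher in CD44high (20.1% of all genes). Summed B cell markers ranged from 94.1 to 326 CPM over all libraries, and neutrophil markers from 0 to 1.69 CPM without and from 0 to 30.1 CPM after injury. The part of these cells in the values below was not tested, and in bulk libraries fewer cells of a type and less RNA per cell cannot be told apart.

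Per kilobase of exons, the receptors differed widely in level. TNFRSF4 was the most abundant of the 10 in every group, from 393 CPM per kb in CD44low Tregs of uninjured mice to 1330 CPM per kb in CD44high Tregs of injured mice, and TNFRSF18 came next with 304 to 674 CPM per kb. TNFRSF1B (103 to 409), TNFRSF9 (89.5 to 316) and CD27 (209 to 260) followed, all in CPM per kb. FAS, TNFRSF25 and TNFRSF1A lay between 21.4 and 54.2 CPM per kb, TNFRSF26 between 6.50 and 11.9, and TNFRSF8 at 0.960 to 7.17 CPM per kb. The highest group mean exceeded the lowest 7.47 times for TNFRSF8 and only 1.25 times for CD27, with TNFRSF1B at 3.97, TNFRSF9 at 3.53 and TNFRSF4 at 3.39 times.

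**Figure D1:**
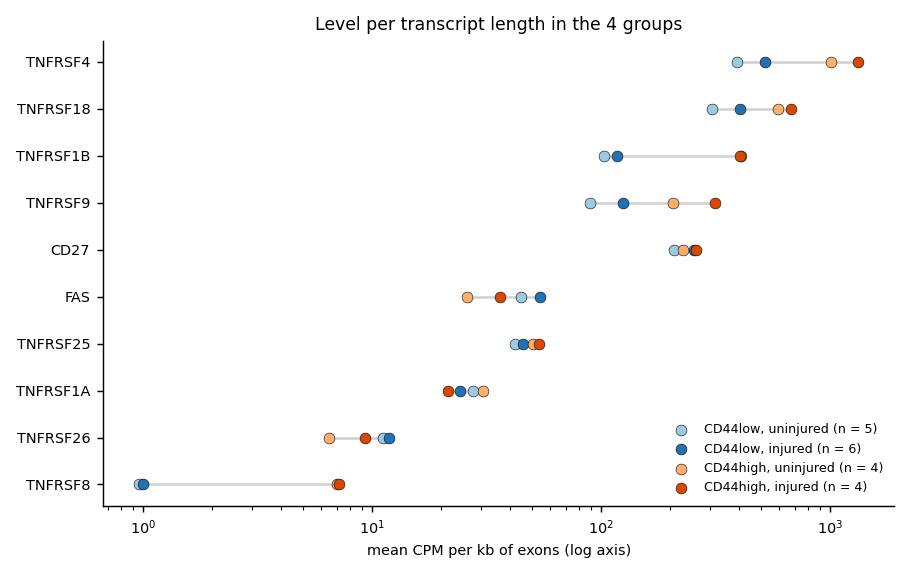
Mean level of each receptor gene in CPM per kb of exons (log axis), with 1 point per group. TNFRSF4 lies furthest right, between 393 and 1330 CPM per kb, and FAS and TNFRSF26 are the genes whose CD44high points (orange) both lie left of their CD44low points (blue).

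TNFRSF4, the receptor for OX40 ligand and a costimulator of activated T cells, stepped up through the 4 groups. In uninjured mice TNFRSF4 stood at 408, 385, 401, 410.5 and 418 CPM in the 5 CD44low libraries and at 1185, 1007, 984 and 970.5 CPM in the 4 CD44high libraries. After injury TNFRSF4 ranged from 456 to 608 CPM (median 539.9) in the 6 CD44low libraries and stood at 1652, 1282, 1209 and 1346 CPM in the 4 CD44high libraries. No 2 neighbouring groups in that order overlapped: every injured library lay above every uninjured library of the same subset, and the lowest CD44high library of uninjured mice lay above the highest CD44low library of injured mice. CD44high exceeded CD44low Tregs 2.56-fold without injury (log2 fold change 1.36, SE 0.106, adjusted p = 2.77e-10, quasi-likelihood test of edgeR, adjusted after Benjamini and Hochberg over all genes) and 2.55-fold after it (adjusted p = 1.90e-10). Injury raised TNFRSF4 1.33-fold in CD44low Tregs (log2 fold change 0.41, SE 0.0966, edgeR adjusted p = 0.0131). For CD44high Tregs the value was 1.32-fold (log2 fold change 0.40, SE 0.112, 95% interval 0.17 to 0.64), with an edgeR adjusted p of 0.0549. With 1 library left out the adjusted p there ran from 0.0411 (without library 2 of uninjured mice) to 0.204 (without library 2 of injured mice, log2 fold change 0.31), and 2 of the 8 left-out libraries brought it under 0.05. It was 0.0301 on the compared groups alone and 0.0201 with DESeq2.

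TNFRSF9, or CD137, is induced on T cells by antigen receptor signals and was the only one of the 10 called in all 4 comparisons of subset and injury. In uninjured mice TNFRSF9 stood at 234, 216, 215, 218 and 229 CPM in CD44low and at 565, 481, 515 and 503 CPM in CD44high libraries. After injury TNFRSF9 ranged from 256 to 404 CPM (median 297) in CD44low libraries and stood at 834, 725, 685 and 898 CPM in CD44high libraries. As for TNFRSF4, the 4 groups formed an ascending series without overlap between neighbours. The subset difference was 2.32-fold without injury (log2 fold change 1.21, SE 0.116, edgeR adjusted p = 8.51e-09) and 2.53-fold after it (log2 fold change 1.34, SE 0.110, edgeR adjusted p = 9.53e-10). Injury raised TNFRSF9 1.52-fold in CD44high Tregs (log2 fold change 0.61, SE 0.122, edgeR adjusted p = 0.00608) and 1.39-fold in CD44low Tregs (log2 fold change 0.48, SE 0.106, edgeR adjusted p = 0.00873). Of the injured CD44low libraries, the 3 whose labels carry a second number (1_2, 4_2 and 5_2) stood at 299, 259 and 256 CPM and the others at 404, 346 and 295 CPM. With libraries 1, 2 and 5 left out, the log2 fold change in CD44low Tregs was 0.31 with an edgeR adjusted p of 0.0742.

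TNFRSF18, or GITR, is carried by Tregs at rest and more strongly once they are activated. In uninjured mice TNFRSF18 stood at 389, 373, 381, 402 and 373 CPM in CD44low and at 819.6, 669, 747 and 737 CPM in CD44high libraries. After injury TNFRSF18 ranged from 417 to 617 CPM (median 497) in CD44low libraries and stood at 997, 731, 821 and 846 CPM in CD44high libraries. The injured CD44low libraries all lay above the uninjured ones, whereas the CD44high libraries of injured and uninjured mice overlapped. CD44high exceeded CD44low Tregs 1.94-fold without injury (log2 fold change 0.95, SE 0.106, edgeR adjusted p = 9.90e-08) and 1.66-fold after it (log2 fold change 0.73, edgeR adjusted p = 3.56e-06). Injury raised TNFRSF18 1.33-fold in CD44low Tregs (log2 fold change 0.42, SE 0.0968, edgeR adjusted p = 0.0125). In CD44high Tregs the log2 fold change was 0.19 (95% interval -0.04 to 0.42), with an edgeR adjusted p of 0.444.

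TNFRSF1B, the TNF receptor that is found mainly on immune and endothelial cells and that binds membrane TNF, passed the test between the subsets and in neither injury comparison. In uninjured mice TNFRSF1B stood at 449, 419.6, 413, 350.1 and 338 CPM in CD44low and at 1689, 1549, 1429 and 1583 CPM in CD44high libraries. After injury TNFRSF1B ranged from 289 to 513 CPM (median 469) in CD44low libraries and stood at 1278, 1705, 1694 and 1512 CPM in CD44high libraries. Each CD44high library lay far above each CD44low library, and within a subset the injured and uninjured ranges overlapped. The difference between subsets was 3.97-fold without injury (log2 fold change 1.99, SE 0.134, edgeR adjusted p = 1.97e-11) and 3.46-fold after it (log2 fold change 1.79, SE 0.126, edgeR adjusted p = 6.67e-11). The log2 fold change with injury was -0.01 in CD44high Tregs (95% interval -0.30 to 0.27) and 0.18 in CD44low Tregs (-0.07 to 0.43), and neither passed the test.

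TNFRSF8, or CD30, appears on activated and effector T cells and had the widest relative difference of the 10. It was the least abundant of them in CD44low Tregs, while in CD44high Tregs of uninjured mice TNFRSF26 was lower (6.5 against 7.06 CPM per kb). In uninjured mice TNFRSF8 stood at 4.07, 3.15, 5.96, 2.87 and 0.338 CPM in CD44low and at 29.95, 22.6, 19.8 and 24.1 CPM in CD44high libraries. After injury TNFRSF8 ranged from 2.37 to 6.28 CPM (median 3.02) in CD44low libraries and stood at 17.3, 30.8, 24.4 and 25.5 CPM in CD44high libraries. The CD44low values rest on 2 to 44 counts per library, and no CD44low library reached the lowest CD44high library. CD44high exceeded CD44low Tregs 7.23-fold without injury (log2 fold change 2.85, SE 0.359, edgeR adjusted p = 6.64e-07) and 7.14-fold after it (log2 fold change 2.84, SE 0.334, edgeR adjusted p = 3.32e-07). Injury effects were loosely bounded in both subsets, with log2 fold changes of 0.02 in CD44high Tregs (95% interval -0.67 to 0.72) and 0.04 in CD44low Tregs (-0.71 to 0.79).

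**Figure D2:**
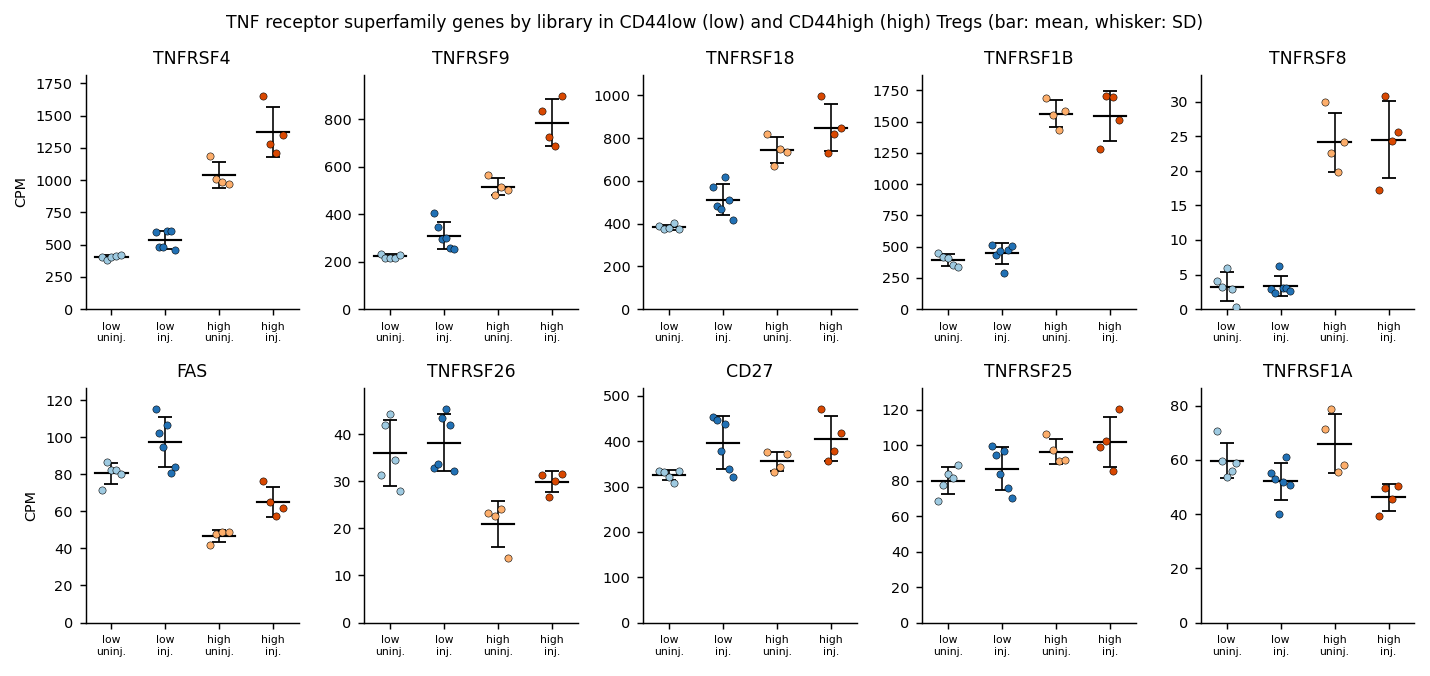
CPM of each of the 10 receptor genes in every library, with the mean (bar) and SD (whisker) of CD44low and CD44high Tregs from uninjured and injured mice (n = 5, 6, 4 and 4). TNFRSF4 and TNFRSF9 ascend from left to right without overlap between neighbouring groups, TNFRSF1B and TNFRSF8 split by subset only, and FAS is lower in CD44high than in CD44low Tregs.

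FAS, the death receptor that triggers apoptosis when it binds FAS ligand, ran the other way between subsets. In uninjured mice FAS stood at 71.6, 86.5, 82.5, 82.2 and 80.02 CPM in CD44low and at 41.7, 47.6, 48.7 and 48.7 CPM in CD44high libraries. After injury FAS ranged from 80.9 to 115 CPM (median 98.7) in CD44low libraries and stood at 76.2, 65.1, 57.7 and 61.6 CPM in CD44high libraries. All CD44high libraries lay below all CD44low libraries of the same condition, and all injured CD44high libraries lay above the uninjured ones. CD44high Tregs held 0.580 times the CD44low level without injury (log2 fold change -0.79, SE 0.121, edgeR adjusted p = 1.11e-05) and 0.669 times after it (log2 fold change -0.58, SE 0.114, edgeR adjusted p = 0.000296). Injury raised FAS 1.39-fold in CD44high Tregs (log2 fold change 0.48, SE 0.125, edgeR adjusted p = 0.0405). That call was narrow: it was lost when any single CD44high library other than library 4 of injured mice was left out, with adjusted p from 0.0717 to 0.135, while the log2 fold change stayed between 0.41 and 0.54 over the left-out libraries. In CD44low Tregs the log2 fold change with injury was 0.27 (95% interval 0.05 to 0.49, edgeR adjusted p = 0.105), and with 1 library left out the adjusted p ran from 0.0378 (without library 5_2) to 0.188 (without library 1_2), under 0.05 also without 4_2.

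TNFRSF26, a mouse relative of the TRAIL receptors whose role in T cells is little defined, was also lower in CD44high Tregs of uninjured mice. In uninjured mice TNFRSF26 stood at 31.3, 42.1, 44.3, 34.5 and 28.0 CPM in CD44low and at 23.2, 22.7, 24.0 and 13.8 CPM in CD44high libraries. After injury TNFRSF26 ranged from 32.1 to 45.3 CPM (median 37.9) in CD44low libraries and stood at 31.3, 26.7, 30.1 and 31.6 CPM in CD44high libraries. The subsets did not overlap in either condition, and the injured CD44high libraries all lay above the uninjured ones. CD44high Tregs held 0.578 times the CD44low level without injury (log2 fold change -0.79, SE 0.177, edgeR adjusted p = 0.000819). After injury the log2 fold change was -0.35 (95% interval -0.69 to -0.01, edgeR adjusted p = 0.0972). For injury in CD44high Tregs it was 0.52 (95% interval 0.14 to 0.90, edgeR adjusted p = 0.153).

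CD27, a costimulator already present on resting T cells and bound by CD70, was nearly level between the subsets. Its mean was 325 ± 11.6 CPM (SD, n = 5) in CD44low and 355 ± 21.7 CPM (SD, n = 4) in CD44high Tregs of uninjured mice, with a log2 value of 0.13 for their ratio (95% interval -0.09 to 0.35). In injured mice the means were 397 ± 58.1 CPM (SD, n = 6) and 405.5 ± 50.2 CPM (SD, n = 4), with a log2 ratio of 0.03 (95% interval -0.18 to 0.24). With injury CD27 had a log2 fold change of 0.29 in CD44low Tregs (95% interval 0.09 to 0.49, edgeR adjusted p = 0.0669), and with 1 library left out the adjusted p ran from 0.0131 (without library 5_2) to 0.13 (without library 1_2), under 0.05 also without 4_2. It was 0.0265 with DESeq2 and 0.125 on the compared groups alone. In CD44high Tregs it was 0.19 (-0.04 to 0.42).

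The death domain receptors TNFRSF25 (DR3, the receptor for TL1A) and TNFRSF1A (TNFR1, the widely expressed TNF receptor) did not pass the test between subsets in the fit of all 19 libraries. TNFRSF25 stood at 80.0 ± 7.63 CPM in CD44low and 96.4 ± 7.13 CPM in CD44high Tregs of uninjured mice without overlap (SD, n = 5 and 4), and their log2 ratio was 0.27 with an edgeR adjusted p of 0.0743, which was 0.0386 on the compared groups alone and 0.0623 to 0.221 with 1 library left out. Its injured means were 86.9 ± 12.0 and 102 ± 14.3 CPM, with overlapping ranges. TNFRSF1A had means of 59.7 ± 6.47 CPM in CD44low and 66.0 ± 10.9 CPM in CD44high Tregs of uninjured mice, and of 52.0 ± 6.90 and 46.2 ± 5.08 CPM in injured mice. Its log2 fold change with injury was negative in both subsets, -0.51 in CD44high Tregs (95% interval -0.81 to -0.22, edgeR adjusted p = 0.0546) and -0.20 in CD44low Tregs (-0.45 to 0.05). All 4 injured CD44high libraries of TNFRSF1A (39.2 to 50.2 CPM) lay below the 4 uninjured ones (55.5 to 78.7 CPM). With 1 library left out the adjusted p ran from 0.0425 (without library 4 of uninjured mice, the only one that brought it under 0.05) to 0.229 (without library 3 of uninjured mice, log2 fold change -0.41), and with DESeq2 it was 0.0172.

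Counted together for uninjured mice, 5 of the 10 genes were called higher in CD44high Tregs at an adjusted p under 0.05, where 24.7% of all 11464 genes tested were, and 2 were called lower, where 21.3% were. In injured mice 5 were called higher (20.1% of all genes) and 1 lower (17.2%). Groups did not overlap, in either direction, for 8 of the 10 in uninjured mice (40.7% of all genes) and for 7 in injured mice (24.8%). At the stricter limit of an unadjusted p under 1e-06 with a change of 2-fold, 4 were called higher in uninjured mice (6.24% of all genes) and 4 in injured mice (4.52%), namely TNFRSF1B, TNFRSF4, TNFRSF8 and TNFRSF9 each time. The median log2 fold change of the 10 was 0.61 in uninjured and 0.48 in injured mice, against 0.01 and 0.00 over all genes.

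**Figure D3:**
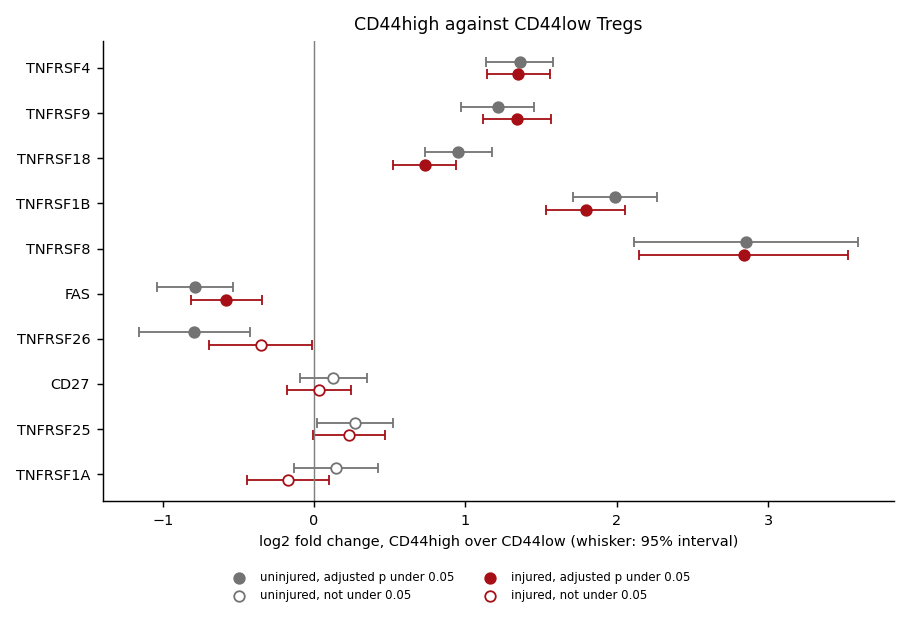
Log2 fold change of CD44high over CD44low Tregs with its 95% interval for the 10 genes, in uninjured (grey) and injured (red) mice; filled points passed an adjusted p of 0.05. TNFRSF8 (2.85 and 2.84) and TNFRSF1B (1.99 and 1.79) lie furthest right, and FAS lies left of 0 in both conditions.

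Injury itself moved fewer of these genes. In CD44low Tregs 3 of the 10 were called higher (TNFRSF4, TNFRSF9 and TNFRSF18), against 4.24% of all genes, and 0 were called lower (3.36% of all genes). The same 3 were the ones whose injured and uninjured ranges did not overlap, which held for 4.68% of all genes. In CD44high Tregs 2 were called higher (TNFRSF9 and FAS), against 1.06% of all genes, and 0 lower (1.33%). Ranges did not overlap there for 5 genes (TNFRSF4, TNFRSF9, FAS, TNFRSF26 and TNFRSF1A), against 13.3% of all genes. At an unadjusted p under 0.05 the members numbered 5 in each subset, against 15.1% of all genes in CD44high and 26.0% in CD44low Tregs. DESeq2 called 4 in each, against 4.16% and 12.3% of all genes. The median log2 fold change with injury was 0.23 in CD44low and 0.19 in CD44high Tregs, against 0.01 and -0.02 over all genes. These comparisons share groups with those between subsets, so the values stand side by side and are not independent of each other.

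**Figure D4:**
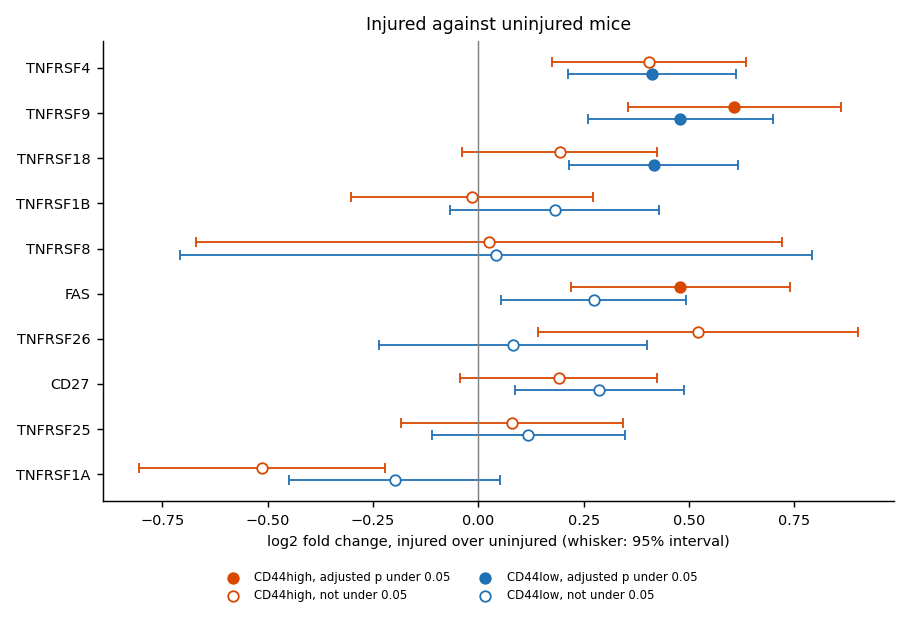
Log2 fold change of injured over uninjured mice with its 95% interval for the 10 genes, in CD44high (orange) and CD44low (blue) Tregs; filled points passed an adjusted p of 0.05. TNFRSF9 is filled in both subsets, TNFRSF4 and TNFRSF18 in CD44low and FAS in CD44high Tregs.

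Whether the injury effect differed between the subsets was tested as an interaction. None of the 10 passed it in edgeR, in either direction, where 0.192% of all genes were called with a higher and 0.454% with a lower effect in CD44high Tregs. The members numbered 0 at an unadjusted p under 0.05 (10.9% of all genes) and 0 with DESeq2 (1.78%). TNFRSF26 came nearest, with a difference of log2 fold changes of 0.44 (95% interval -0.06 to 0.93, edgeR adjusted p = 0.522). TNFRSF18, called in one subset only, had a difference of -0.22 (95% interval -0.53 to 0.08), and FAS had 0.21 (-0.13 to 0.54). TNFRSF4 had nearly the same log2 fold change in both, with a difference of -0.01 (-0.31 to 0.30). By contrast the resting T cell gene TCF7, which was lower in CD44high than in CD44low Tregs, did pass the interaction, at 323 ± 24.2 CPM in uninjured and 491.5 ± 18.4 CPM in injured CD44high Tregs (SD, n = 4 each). TCF7 moved within the CD44high gate together with the injury comparison of the receptors there, and its part in it was not tested.

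The injured CD44low libraries fall into 3 with and 3 without a second number in their labels, and the sources used here do not say what it means. None of the 10 genes separated these sets without overlap, while 19.3% of all genes did. TNFRSF9 averaged 348 CPM without and 272 CPM with the second number, 1.57 and 1.22 times the uninjured mean. CD27 averaged 427 and 366 CPM and FAS 104 and 90.5 CPM. TNFRSF4 (521 and 555 CPM) and TNFRSF18 (508 and 515 CPM) were close between the sets. The smallest p was 0.2 (exact permutation test, two-sided), and 3 against 3 libraries cannot go below 0.1.

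Levels of several receptors ran in parallel over the 19 libraries. Pearson's r of log2 CPM was 0.975 between TNFRSF4 and TNFRSF18, 0.967 between TNFRSF4 and TNFRSF9 and 0.925 between TNFRSF1B and TNFRSF8, whereas FAS with TNFRSF1B gave -0.828. The points share the 4 groups, so these values reflect the group levels as well as the libraries within a group. Among all genes tested, the one most like TNFRSF4 and TNFRSF9 was CLDND1 (r = 0.99 and 0.984), followed for TNFRSF4 by the tetraspanin CD82 (0.985) and PSEN2 (0.98). TNFRSF1B was most like PLEKHB2 (0.984), the lymphoid factor IKZF3 (0.983) and UHRF1 (0.982), TNFRSF8 like CCNF (0.97), TNFRSF18 like CAPZB and SEC11C (0.976 each). FAS was most like GIMAP3 (0.956), CD27 like CD2 (0.931), TNFRSF26 like 5430405H02RIK (0.938), TNFRSF25 like SPG21 (0.876) and TNFRSF1A like PTBP1 (0.807).

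Ligands of these receptors were measured in the same cells, and per kilobase of exons LTA had the highest level of the 9 in every group (34.5 to 83.5 CPM per kb). TNF, which binds TNFRSF1A and TNFRSF1B, stood at 15.03 ± 5.64 CPM in CD44low (SD, n = 5) and 40.02 ± 6.76 CPM in CD44high Tregs (SD, n = 4) of uninjured mice (log2 fold change 1.41, edgeR adjusted p = 4.11e-05). LTA (lymphotoxin alpha), which binds the same receptors, fell with injury from 115 ± 8.11 to 80.7 ± 17.5 CPM in CD44low Tregs (log2 fold change -0.52, edgeR adjusted p = 0.0142) and from 83.5 ± 9.84 to 47.8 ± 3.98 CPM in CD44high Tregs (log2 fold change -0.81, edgeR adjusted p = 0.00262). In both subsets the injured LTA range lay wholly below the uninjured one. LTA was also lower in CD44high than in CD44low Tregs, opposite to TNF in uninjured mice. The log2 fold change was -0.47 without injury (edgeR adjusted p = 0.0077) and -0.76 after it (edgeR adjusted p = 0.000102). TNFSF8, the ligand of TNFRSF8, was lower in CD44high Tregs, opposite to its receptor: 69.9 ± 10.6 CPM in CD44low and 20.2 ± 6.01 CPM in CD44high Tregs of uninjured mice (log2 fold change -1.795, edgeR adjusted p = 3.02e-09). After injury it stood at 57.0 ± 2.30 and 20.8 ± 2.32 CPM (log2 fold change -1.45, edgeR adjusted p = 6.46e-08). TNFSF9, the ligand of TNFRSF9, was higher in CD44high Tregs like its receptor, at 4.36 ± 1.34 and 10.4 ± 1.83 CPM in uninjured mice (log2 fold change 1.24, edgeR adjusted p = 0.00073). FASL, the ligand of FAS, rose with injury in CD44low Tregs from 5.75 ± 2.51 to 11.9 ± 2.41 CPM (log2 fold change 1.05, edgeR adjusted p = 0.0245). That call was lost in 5 of 19 alternatives, with an adjusted p of up to 0.0839. Among them were those without CD44low library 2 (0.0503) or 4 (0.0529) of uninjured or 1_2 (0.0573) of injured mice.

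The ligands of TNFRSF4, CD27, TNFRSF25 and TNFRSF18 did not pass the filter on low counts. TNFSF4 had 0 to 12 counts per library, CD70 0 to 14, TNFSF15 0 to 4 and TNFSF18 0 to 5. For TNFSF18 no count was seen in 3 of the 4 groups, which allows a level of up to 0.0931 CPM in CD44low and 0.115 CPM in CD44high Tregs of uninjured mice and 0.0881 CPM in CD44high Tregs of injured mice, counting error only. Of all 17 ligand genes listed, 11 were tested. In uninjured mice 6 were higher and 3 lower in CD44high Tregs (24.7% and 21.3% of all genes), with 6 and 3 in injured mice (20.1% and 17.2%). With injury 0 were higher and 1 lower in CD44high Tregs (1.06% and 1.33% of all genes), and 1 higher and 1 lower in CD44low Tregs (4.24% and 3.36%).

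**Figure D5:**
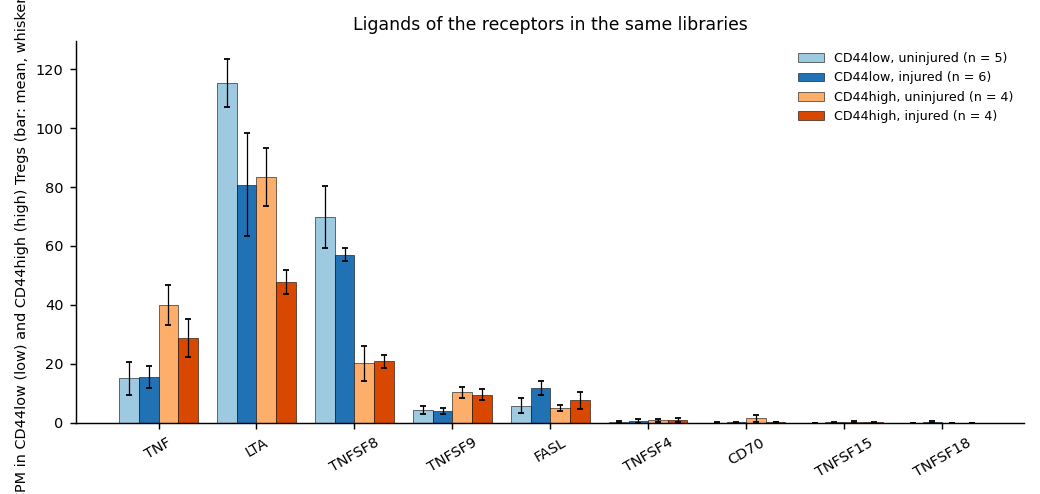
Mean CPM (bar) and SD (whisker) of 9 ligands of these receptors in the 4 groups. TNFSF8 and LTA are lower and TNF and TNFSF9 are higher in CD44high (orange) than in CD44low (blue) Tregs. LTA is also lower after injury in both subsets, and TNFSF4, CD70, TNFSF15 and TNFSF18 are near 0.

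Inside the cell, adaptors and relay genes were called in both directions between the subsets, where 24.7% of all genes were higher and 21.3% lower in uninjured and 20.1% and 17.2% in injured mice. Of 16 TRAF proteins and receptor adaptors, all tested, 3 were higher and 6 lower in CD44high Tregs of uninjured mice, and 2 were higher and 5 lower in injured mice. TRAF6, an adaptor that feeds NF-kB, stood at 123 ± 17.9 CPM in CD44low and 41.7 ± 6.43 CPM in CD44high Tregs of uninjured mice (log2 fold change -1.56, edgeR adjusted p = 2.19e-06), and TRAF4 at 61.5 ± 8.62 and 31.8 ± 3.35 CPM. CASP8, the protease that FAS activates, was lower (log2 fold change -0.57, edgeR adjusted p = 0.000129), and TRAIP, which also acts in DNA replication, was higher (log2 fold change 2.07, edgeR adjusted p = 0.000533). The injury comparisons called 0 of the 16 in either subset. Of all genes 1.06% were higher and 1.33% lower with injury in CD44high Tregs, and 4.24% and 3.36% in CD44low Tregs. Of 23 genes that relay the signal to NF-kB, 5 were higher and 5 lower in CD44high Tregs of uninjured mice, and 0 and 4 in injured mice. The 10 calls in uninjured mice became 5 to 8 with 1 library left out (5 without CD44high library 4), and the 4 in injured mice became 7 without CD44low libraries 1, 2 and 5. MAP3K14 (NIK), the kinase through which several of these receptors start the alternative NF-kB pathway, was lower in CD44high Tregs, at 52.8 ± 8.73 and 15.2 ± 2.65 CPM in uninjured mice (log2 fold change -1.80, edgeR adjusted p = 1.36e-06) and again in injured mice (log2 fold change -1.69, edgeR adjusted p = 2.34e-06). NFKBIA, an inhibitor that NF-kB itself induces, was higher in CD44high Tregs of uninjured mice (log2 fold change 0.52, edgeR adjusted p = 0.000343) and rose with injury in CD44low Tregs from 419 ± 25.3 to 570.4 ± 79.6 CPM (log2 fold change 0.45, edgeR adjusted p = 0.0087). In the same comparison REL fell (log2 fold change -0.90, edgeR adjusted p = 0.00371) and NFKB1 rose (0.60, edgeR adjusted p = 0.0305). The NFKB1 call was lost without CD44low library 1 of uninjured (adjusted p = 0.0548) or 1_2 of injured mice (0.0571), and without all 3 libraries with a second number its log2 fold change was 0.21 (adjusted p = 0.19). In CD44high Tregs injury called 0 of the 23.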

How the data were processed

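The 19 libraries of sorted Tregs fall into 4 groups by their labels. Raw counts per gene were deposited in one table with replicates kept apart, and the authors made these counts with STAR through the VIPER workflow, from SMART-Seq v4 cDNA and Swift 2S libraries. Per the submitters' processing notes STAR 2.5 and bcl2fastq 2.18 were used, and the builds mm9 and mm10 are named without a role. The sources used here do not give the annotation or say whether counting used strand. Each of the 19 columns matched 1 sample, and 4 entries that share a date-like symbol were kept apart.

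The software was edgeR 4.0.16 and limma 3.58.1 in R 4.3.3, DESeq2 1.42.0 for an alternative and Python 3.11.15 for tables and figures. Genes were filtered by edgeR's rule with a minimum count of 10, leaving 11464 of 24982, and totals were scaled by TMM factors (0.97 to 1.04). All 19 libraries entered a single fit of 4 group means with no covariate. Contrasts were tested two-sided by the quasi-likelihood method of edgeR, p-values were adjusted over all genes tested after Benjamini and Hochberg, and a gene was called at an adjusted p under 0.05. Standard errors and 95% intervals come from this fit. CPM values were computed from the deposited counts, and log2 CPM used a prior count of 2. Levels were divided by the exon bases of the basic set of GENCODE vM21 only to compare genes. Exon bases shared with other genes were counted on its full set. There TNFRSF18 has 1524 bases against 1260 in the basic set, and CD27 has 2328 against 1559. Levels per kb on the full set were not computed. Reads carry no molecular identifiers here, so the limit that a count of 0 allows (3 counts over a group) covers counting error only. The script was tested on simulated counts with known changes.

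One listed marker is not reported here. The 10 genes, the lists beside them and the rule for named genes were chosen with earlier results of these data known. The lists were ligands, other receptors of the superfamily, adaptors, the NF-kB relay, and markers of sorted Tregs, of resting T cells and the CD44 sort, and of B cells, CD8 and NK cells, macrophages and dendritic cells, neutrophils, and stroma and endothelium. Named were all 10 genes, their ligands, up to 4 called genes of smallest p per list and comparison, and for each of the 10 at most the 3 genes most alike in log2 CPM. Alternatives were DESeq2, its size factors, no filter, the compared groups alone, a replicate block, a stricter call, the injured CD44low libraries with or without a second number left out or summed by first number, and each library left out in turn.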

Additional observations from a re-analysis of the deposited data

Results flagged for a closer look

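In each group of 4 to 6 libraries, the highest and the lowest log2 CPM of each receptor gene were compared with the rest by Dixon's test at 95%, which chance alone passes in about 1 of 20 groups. Of 40 groups examined, 4 held such a library. TNFRSF1B stood at a log2 CPM of 8.18 (289 CPM, 1678 counts) in injured CD44low library 1_2, below the other 5 at 8.76 and above. TNFRSF8 stood at 2.71 (6.28 CPM, 44 counts) in injured CD44low library 5, above the other 5 at 1.41 to 1.76. TNFRSF26 stood at 3.81 (13.8 CPM, 112 counts) in uninjured CD44high library 5, below the other 3 at 4.52 to 4.60. FAS stood at 5.39 (41.7 CPM, 234 counts) in uninjured CD44high library 2, below the other 3 at 5.58 to 5.61.

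TCF7, a factor of resting and memory-like T cells, had an injury effect that differed between the subsets by edgeR's interaction test. Its effect was 0.70 higher on the log2 scale in CD44high than in CD44low Tregs (SE 0.118, adjusted p = 0.00321). In CD44high Tregs the injury effect was 0.60 and in CD44low Tregs -0.10 (95% interval -0.26 to 0.06).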

How the results depend on the processing

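For 50 values of the 10 genes, 900 alternative values were computed, with the stricter call not counted among them. Of the 900, 836 kept their direction and their side of the threshold, 10 lost a call, 14 gained one and 40 changed sign. The 77 results named from the other lists lost a call in 60 of 1250 alternative values and changed sign in 0.

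Calls between subsets were counted as 7 in uninjured mice (4 at p under 1e-06 with 2-fold, and 8 on the compared groups alone, which added TNFRSF25) and 6 in injured mice. With injury in CD44high Tregs the 2 calls became 4 with DESeq2, 3 on the compared groups alone, 1 with no filter, 1 with the replicate block, 0 at p under 1e-06 with 2-fold and 1 to 3 with a library left out. With injury in CD44low Tregs the 3 calls became 5 without libraries 1_2, 4_2 and 5_2, 2 without libraries 1, 2 and 5, 4 with DESeq2, 0 at p under 1e-06 with 2-fold and 3 to 5 with a library left out (5 without 4_2 or 5_2). FAS in CD44high Tregs had an adjusted p of 0.0527 with no filter and 0.0664 with the block. The interaction count was 0 under every alternative run. Over all genes edgeR and DESeq2 called 273 and 477 with injury in CD44high Tregs, 871 and 1453 in CD44low Tregs, and 74 and 215 for the interaction.

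Log2 values near 0 changed sign. Without libraries 1_2, 4_2 and 5_2, CD27 between subsets of injured mice was -0.075 and the interactions of TNFRSF4 and TNFRSF9 were 0.040 and -0.039. Without libraries 1, 2 and 5, TNFRSF8 with injury in CD44low Tregs was -0.15 and the interactions of TNFRSF8, TNFRSF25 and CD27 were 0.19, 0.051 and 0.0086. With libraries summed, TNFRSF8 was -0.0087 in CD44low Tregs and its interaction 0.034. TNFRSF1B with injury in CD44high Tregs was 0.0047 with no filter and 0.013 on the compared groups alone. With the replicate block TNFRSF8 there was -0.011 and the TNFRSF4 interaction 0.017. With a library left out, ranges were -0.071 to 0.090 for CD27 between injured subsets, -0.063 to 0.078 for TNFRSF1B, -0.10 to 0.17 for TNFRSF8 and -0.0078 to 0.16 for TNFRSF25 with injury in CD44high Tregs, and -0.21 to 0.40 for TNFRSF8 in CD44low Tregs. Interactions ranged from -0.12 to 0.053 for TNFRSF4, -0.36 to 0.25 for TNFRSF8 and -0.13 to 0.037 for TNFRSF25. The cause of these changes was not tested.

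Whether replicate numbers pair the samples could not be settled. Deviations of same-numbered libraries correlated between -0.12 and 0.167 over 18 pairs, of which 4 exceeded 0.1. Other-numbered libraries gave -0.452 to 0.41 over 72 pairs, of which 7 exceeded 0.1. The 18 pairs include uninjured with injured libraries, which cannot share a mouse. The 4 over 0.1 lay between subsets of the same condition (0.119, 0.167, 0.101 and 0.116). Replicates of a group differed by a chi-square of 4.96 to 41.3 per gene over 37 pairs, so no library was a copy of another. NF-kB relay genes called between subsets of uninjured mice numbered 6, not 10, without CD44high library 3 or 5 or CD44low library 1 or 4. Low counts limit TNFRSF8 in CD44low Tregs and the ligands that were not tested.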

Other observations

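Of 18 further receptors of the superfamily 10 were tested, and in uninjured mice 2 were higher (24.7% of all genes) and 4 lower (21.3%) in CD44high Tregs. TNFRSF13B (TACI, a receptor for BAFF and APRIL that is best known from B cells) stood at 108 ± 10.7 CPM (SD, n = 5) in CD44low and 269.8 ± 28.2 CPM (SD, n = 4) in CD44high Tregs, a log2 fold change of 1.32 (edgeR adjusted p = 4.60e-10). Of 8 B cell markers 1 (CD79B) was called higher and 0 lower in that comparison, 1 (CD22) was higher between injured subsets and with injury in CD44high Tregs, and 0 with injury in CD44low Tregs. RELT, an orphan receptor, ran the other way, at 53.8 ± 13.9 and 21.5 ± 5.82 CPM (log2 fold change -1.32, edgeR adjusted p = 8.33e-06). In injured mice 1 of the 10 was higher (20.1% of all genes) and 2 were lower (17.2%). TNFRSF13B had a log2 fold change of 0.92 (edgeR adjusted p = 1.01e-07) and RELT one of -0.98 (edgeR adjusted p = 0.000211). The injury comparisons called 0 of the 10 in either subset. Of all genes 1.06% were higher and 1.33% lower with injury in CD44high Tregs, and 4.24% and 3.36% in CD44low Tregs.

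Among genes of the CD44 sort and resting state, CD44 was higher and CCR7, LEF1 and TCF7 were lower in CD44high Tregs in both conditions. Among 6 sorted Treg markers 2 were higher and 1 lower in uninjured and 3 higher and 1 lower in injured mice, led by CTLA4 with log2 fold changes of 2.32 and 1.89. Of 5 CD8 and NK cell markers 1 (KLRB1C) was higher in each condition. Of 6 stromal and endothelial markers 2 were tested, and PECAM1, which resting T cells also carry, was lower and COL1A1 higher in each condition. Of 4 neutrophil markers 2 were tested, and S100A9 was called higher after injury in both subsets, from 0 to 2 counts per uninjured to 0 to 101 counts per injured library. That call was lost in CD44high Tregs without 6 of the 8 libraries compared and in CD44low Tregs without 5 of the 11. With injury in CD44low Tregs KLRB1C, LYZ2 (1 of 6 macrophage and dendritic cell markers tested) and CTLA4 were also called higher (LYZ2 log2 fold change 1.27, lost without 4 of the 11 libraries and 0.51 with an edgeR adjusted p of 0.368 without libraries 1, 2 and 5, where KLRB1C had 0.107), and in CD44high Tregs PECAM1 and TCF7 were.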
